A study of Homo sapiens with 18 samples.

Results

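The genes described here encode the proteins of the mitochondrial ribosome. They were taken by name, as the protein-coding genes of the RefSeq gene table of GRCh38.p14 whose symbol is MRPL or MRPS followed by a number. This gave 77 of the 19974 protein-coding genes on chromosomes 1 to 22 and X, 49 named MRPL after the large subunit and 28 named MRPS after the small subunit. They lie on 21 chromosomes. A peak was assigned to a gene when any base of it lay within 1 kb of either boundary of the gene.

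Peaks came from CUT&RUN, in which an antibody directs a nuclease to cut and release the DNA around a chromatin protein. All cells were Kasumi-1, an acute myeloid leukaemia line with the t(8;21) translocation, and carried a Flag-tagged AML1-ETO, the fusion protein made by that translocation. They were either control cells or cells with a knockdown of the microRNA miR-130a, in both cases sorted as viable GFP+ cells 3 days after transduction. Each condition was profiled with anti-ETO, anti-Flag and mouse IgG, in 6 groups of 3 libraries, and the 18 libraries all come from 1 cell line.

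Mitochondrial ribosomes make the few proteins encoded by mitochondrial DNA, which are subunits of the respiratory chain and of ATP synthase. Their own proteins are encoded in the nucleus, made in the cytosol and imported. Some descend from bacterial ribosomal proteins, and others were added in the mitochondrial lineage. AML1-ETO joins the DNA-binding runt domain of RUNX1 (AML1) to most of the corepressor ETO (RUNX1T1), and in leukaemia cells it binds many sites that RUNX1 also binds.

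The deposited peak lists held positions only. The anti-ETO lists had 14264 peaks in control and 22594 after knockdown, and the anti-Flag lists had 23162 and 25961. By its name, the shared list held 8731 peaks that both antibodies gave in both conditions. The control-unique and knockdown-unique lists, by name, held 3059 and 4617 peaks that both antibodies gave in 1 condition. There was 1 list for each antibody and condition, so no value per library, no spread between replicates and no test over libraries could be given. A call is yes or no, a longer list gives more calls, and an absent call does not show absent binding. The counts of genes below are therefore set beside the same share of all 19974 protein-coding genes.

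In control cells, anti-ETO gave a peak at 37 of the 77 mitochondrial ribosomal protein genes (48.1%, against 35.1% of all protein-coding genes) and anti-Flag at 38 (49.4%, against 37.1%). After miR-130a knockdown, anti-ETO gave a peak at 49 (63.6%, against 41.7%) and anti-Flag at 36 (46.8%, against 30.6%). The share of these genes was above the share of all coding genes in each of the 4 lists. All 4 lists called 29 genes (37.7%, against 26.0%) and at least 1 list called 51 (66.2%, against 45.7%), which left 26 in none (33.8%, against 54.3%). Shared peaks lay at 26 genes (33.8%, against 25.4%), control-unique peaks at 10 (13.0%, against 8.54%) and knockdown-unique peaks at 8 (10.4%, against 6.86%). At least 1 of these 3 kinds of peak lay at 40 genes (51.9%, against 35.3%).

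**Figure D1:**
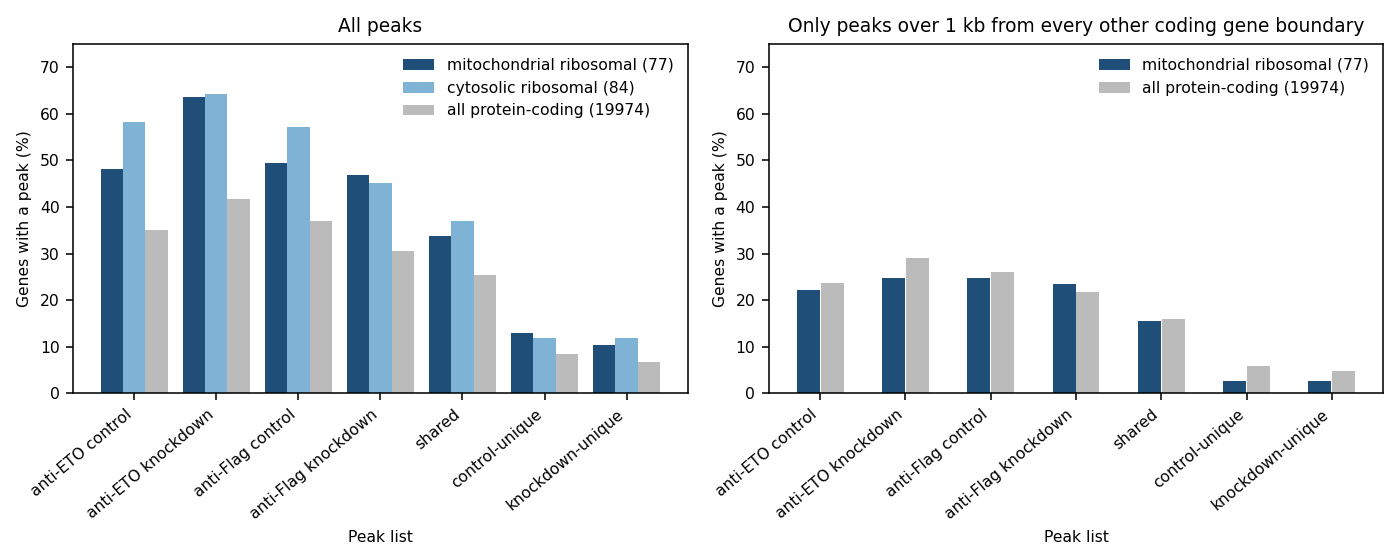
Share of genes (percent) with a peak within 1 kb of a boundary, in the 7 peak lists, for the 77 mitochondrial ribosomal, the 84 cytosolic ribosomal and all 19974 protein-coding genes (left), and with only peaks over 1 kb from every other coding gene boundary (right). On the left, in the knockdown anti-ETO list the mitochondrial ribosomal protein genes reach 63.6% and all coding genes 41.7%, and on the right 24.7% and 29.1%.

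Among all coding genes, those with a close coding neighbour had the higher share called in each of the 4 lists. Among the 77 genes this held only in knockdown anti-ETO. Another coding gene had a boundary within 1 kb of 42 of the 77 genes (54.5%), against 28.6% of all coding genes, and a peak between such a pair counts for both. Among genes with such a neighbour, the share called was 45.2% in control anti-ETO, 66.7% in knockdown anti-ETO, 47.6% in control anti-Flag and 45.2% in knockdown anti-Flag. All coding genes with a neighbour gave 53.3%, 62.1%, 55.8% and 48.0% in the same order, so 3 of the 4 shares were below theirs. For the 35 genes without a neighbour, the shares were 51.4%, 60.0%, 51.4% and 48.6%, against 27.8%, 33.5%, 29.6% and 23.6% of all such coding genes. When only peaks more than 1 kb from every other coding gene were counted, an alternative chosen after seeing the data, the calls were 17, 19, 19 and 18 of 77 (22.1%, 24.7%, 24.7% and 23.4%). The shares of all coding genes were then 23.7%, 29.1%, 26.0% and 21.7%, and by its construction this count drops more peaks from a set with many neighbours. Some neighbours belong to mitochondria as well: MRPL36 lies beside NDUFS6 and MRPL47 beside NDUFB5 (subunits of respiratory complex I), MRPL43 beside TWNK (the helicase of mitochondrial DNA) and MRPS12 beside SARS2 (a mitochondrial tRNA synthetase). The part of neighbouring genes in the calls was not tested.

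**Figure D2:**
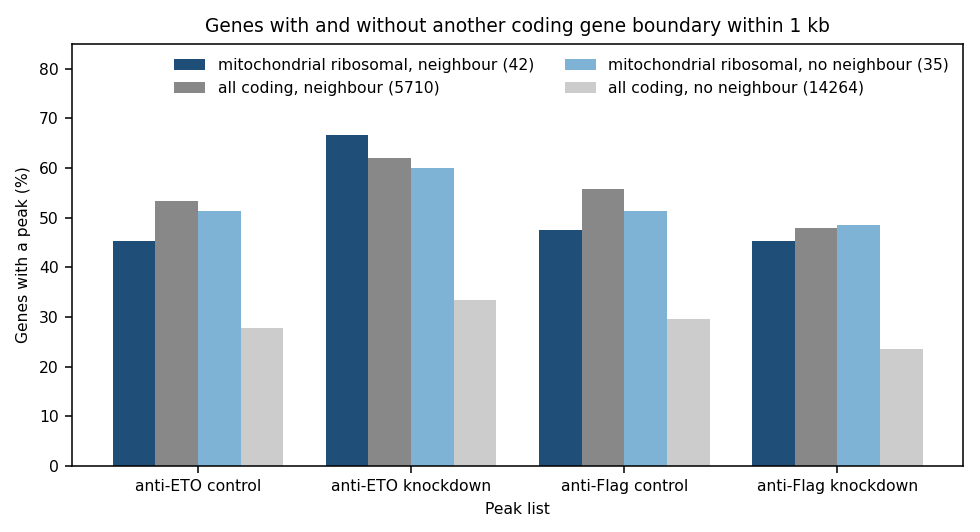
Share of genes (percent) with a peak in each of the 4 single-antibody lists, split by whether another protein-coding gene has a boundary within 1 kb, for the mitochondrial ribosomal protein genes (42 with, 35 without) and all protein-coding genes. Without a neighbour the former lie between 48.6% and 60.0% and the latter between 23.6% and 33.5%.

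Names do not always give the subunit, since the proteins of MRPS18A and MRPS30 sit in the large subunit of the human mitochondrial ribosome. By role, 30 of the 77 genes encode large-subunit proteins with a bacterial counterpart. Control anti-ETO called 14 of them (46.7%), knockdown anti-ETO 20 (66.7%), control anti-Flag 15 (50%) and knockdown anti-Flag 13 (43.3%), beside 35.1%, 41.7%, 37.1% and 30.6% of all coding genes. Of the 21 large-subunit proteins specific to mitochondria, these lists called 52.4%, 66.7%, 52.4% and 61.9% in the same order. Of the 16 small-subunit proteins with a bacterial counterpart they called 50%, 68.8%, 43.8% and 37.5%, and of the 10 that are specific to mitochondria 40.0%, 40.0%, 50% and 40.0%, of which the knockdown anti-ETO share was below that of all coding genes. These subgroups, which were chosen with earlier results of these data known, are small, and differences between them were not tested. Across these subgroups, in the order given, control-unique peaks lay at 5, 3, 2 and 0 genes (16.7%, 14.3%, 12.5% and 0%, against 8.54% of all coding genes). Knockdown-unique peaks lay at 2, 5, 1 and 0 (6.67%, 23.8%, 6.25% and 0%, against 6.86%).

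**Figure D3:**
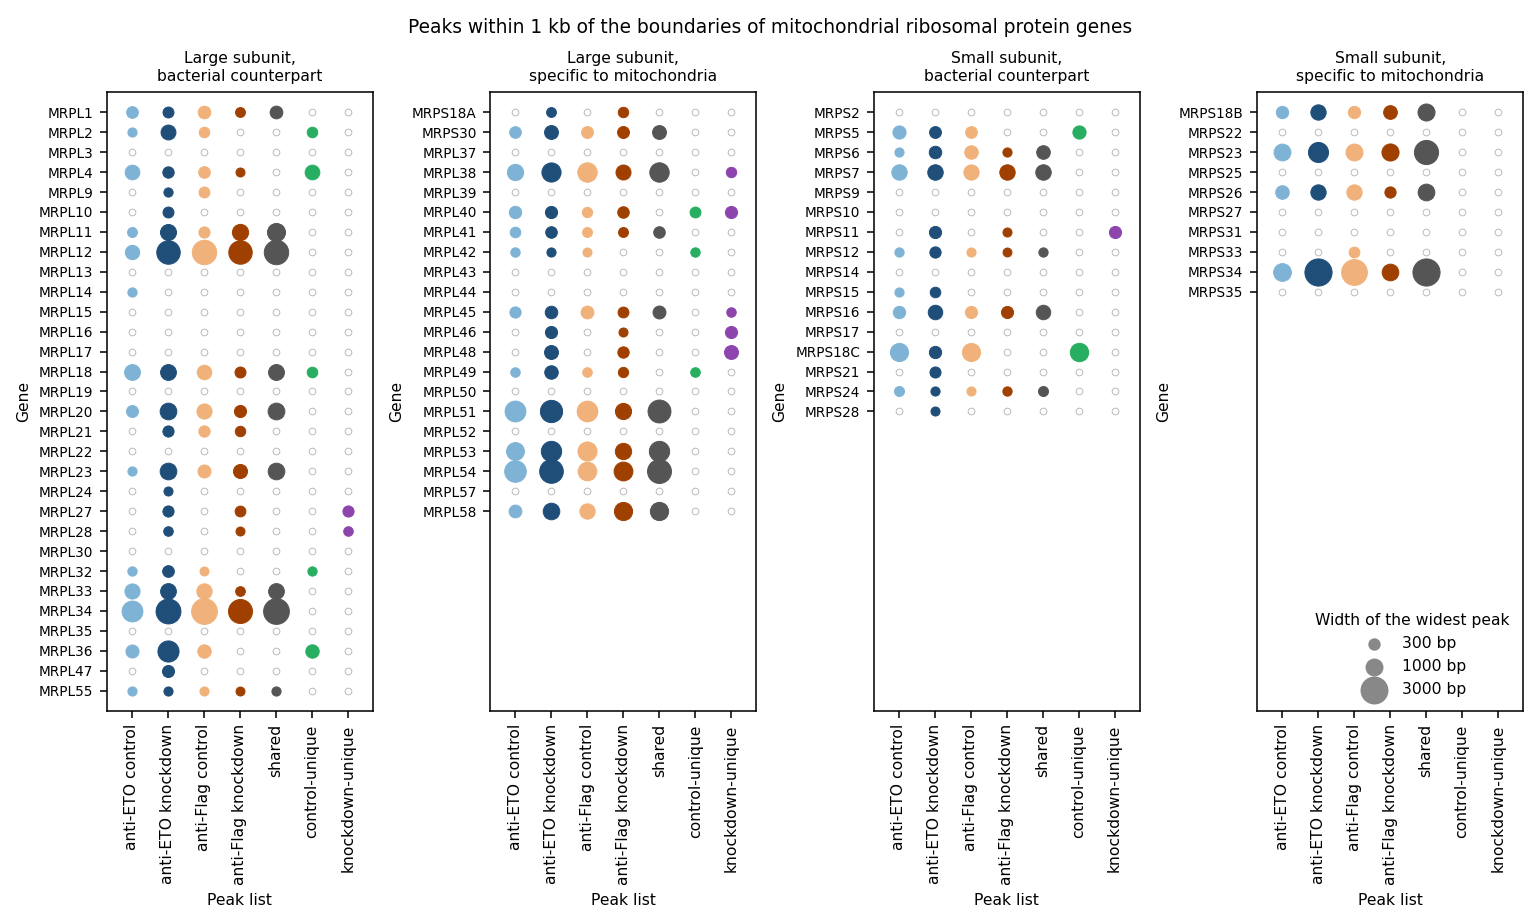
Calls for each of the 77 mitochondrial ribosomal protein genes (rows, 1 panel for each subunit and class) in the 7 peak lists (columns), where a filled circle is a peak within 1 kb of a boundary and its area grows with the width of the widest peak (bp). In all, 29 genes are filled in all 4 single-antibody columns and 26 in none.

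The 29 genes called in every single-antibody list were MRPL1, MRPL4, MRPL11, MRPL12, MRPL18, MRPL20, MRPL23, MRPL33, MRPL34, MRPL38, MRPL40, MRPL41, MRPL45, MRPL49, MRPL51, MRPL53, MRPL54, MRPL55, MRPL58, MRPS6, MRPS7, MRPS12, MRPS16, MRPS18B, MRPS23, MRPS24, MRPS26, MRPS30 and MRPS34. All but MRPL4, MRPL40 and MRPL49 had a shared peak. The 31 distinct shared peaks at these genes ran from 188 to 3298 bp with a median of 987 bp, against a median of 1129 bp near any coding gene. The widest shared peak, at MRPS34 (small subunit, specific to mitochondria), spanned 3298 bp at chr16:1771184-1774481. It covered control anti-ETO peaks of 1066 and 1289 bp, a knockdown anti-ETO peak of 3298 bp, a control anti-Flag peak of 2952 bp and knockdown anti-Flag peaks of 1111 and 581 bp. EME2 and NME3 lie within 1 kb of MRPS34.

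MRPL34, a small protein of the large subunit, had a shared peak of 2949 bp at the end of the gene (chr19:17304107-17307055) beside ABHD8, and another of 1247 bp at its start. The former measured 1859 bp with anti-ETO in control and 2735 bp after knockdown, and 2948 and 2524 bp with anti-Flag. MRPL12, whose protein forms the stalk that recruits translation factors to the ribosome, had a shared peak of 2624 bp at chr17:81701653-81704276. Anti-ETO gave peaks of 768 and 316 bp there in control and 1 peak of 2411 bp after knockdown, while anti-Flag gave 2624 and 2403 bp. The wide anti-ETO peak thus appeared after knockdown, at a site that anti-Flag covered widely in both conditions.

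MRPS23 (small subunit) followed with 2561 bp at chr17:57848950-57851510. Its peaks measured 1137 bp in control anti-ETO, 1701 and 603 bp in knockdown anti-ETO, 1152 and 1112 bp in control anti-Flag, and 666 and 1183 bp in knockdown anti-Flag. MRPL54 had 2511 bp at chr19:3760976-3763486 and MRPL51 had 2286 bp at chr12:6492700-6494985. Both are large-subunit genes within 1 kb of another gene, APBA3 and NCAPD2. Not every gene of this class varied in width. At MRPS7, whose protein belongs to the head of the small subunit, the peak at the gene start measured 910 bp in control anti-ETO, 925 bp in knockdown anti-ETO, 891 bp in control anti-Flag and 915 bp in knockdown anti-Flag. MRPS7 was chosen for this after its values were seen.

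The bases before the start of MRPL12 and MRPS23 are shown because both lie whole inside wide shared peaks. They come from RefSeq (GRCh38.p14), at chr17:81703117-81703366 on the plus strand and chr17:57850045-57850294 on the minus strand, each 250 bases that end at the gene start. Capitals mark matches to the 10 motifs that were searched for and are spelled out with the promoter results below, and the MRPL12 window holds none.
MRPL12: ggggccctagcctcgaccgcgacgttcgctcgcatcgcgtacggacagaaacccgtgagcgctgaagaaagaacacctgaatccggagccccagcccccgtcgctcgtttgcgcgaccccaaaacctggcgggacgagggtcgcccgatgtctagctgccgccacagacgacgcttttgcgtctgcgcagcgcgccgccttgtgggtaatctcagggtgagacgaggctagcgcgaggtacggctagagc
MRPS23: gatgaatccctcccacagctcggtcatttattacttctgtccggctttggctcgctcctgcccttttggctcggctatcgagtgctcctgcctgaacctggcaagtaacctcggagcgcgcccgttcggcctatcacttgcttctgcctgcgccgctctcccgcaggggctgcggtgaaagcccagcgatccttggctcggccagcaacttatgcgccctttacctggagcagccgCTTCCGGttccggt
The capitals in MRPS23 are the ETS letters CCGGAAG on the other strand, 14 bases before the gene start.

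Between the conditions, the 2 antibodies differed in which of these genes they called. Anti-ETO called 36 genes in both conditions, 13 only after knockdown (16.9%, against 8.03% of all coding genes) and 1 only in control (1.30%, against 1.48%). The 13 were MRPL9, MRPL10, MRPL21, MRPL24, MRPL27, MRPL28, MRPL46, MRPL47, MRPL48, MRPS11, MRPS18A, MRPS21 and MRPS28, and the 1 was MRPL14. Anti-Flag called 30 genes in both, 6 only after knockdown (7.79%, against 2.58%) and 8 only in control (10.4%, against 9.10%). The 6 were MRPL27, MRPL28, MRPL46, MRPL48, MRPS11 and MRPS18A, and all 6 were among the 13 of anti-ETO. The 8 were MRPL2, MRPL9, MRPL32, MRPL36, MRPL42, MRPS5, MRPS18C and MRPS33.

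The knockdown anti-ETO list is the longer of the 2 anti-ETO lists, and the count depends on that length. With each knockdown list shortened to the length of its control list by keeping its widest peaks, anti-ETO called 4 genes only after knockdown and 6 only in control. The shares of all coding genes were then 3.79% and 5.42%, beside 5.19% and 7.79% here. Anti-Flag called 3 genes only after knockdown (3.90%, against 2.2%) and 12 only in control (15.6%, against 10.8%). The knockdown lists then called 35 genes with anti-ETO (45.5%, against 33.5%) and 29 with anti-Flag (37.7%, against 28.5%). Whether the calls seen only after knockdown reflect more binding or a longer list cannot be told apart.

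Both antibodies called 6 genes only after knockdown, namely MRPL27, MRPL28, MRPL46, MRPL48, MRPS11 and MRPS18A (7.79%, against 1.13% of all coding genes). With the knockdown lists at control lengths this was 1 gene, MRPL48 (1.30%, against 0.531%). Among the 6, MRPL46 and MRPS11 were called through the same peak of each antibody. MRPS18A had a peak of each antibody (244 bp with anti-ETO and 307 bp with anti-Flag) but no knockdown-unique peak. Another 6, MRPL2, MRPL32, MRPL36, MRPL42, MRPS5 and MRPS18C, were in every list but knockdown anti-Flag (7.79%, against 5.64%). A further 5 were in the knockdown anti-ETO list alone (6.49%, against 3.68%), and their peaks measured 356 bp at MRPL10, 178 bp at MRPL24, 474 and 276 bp at MRPL47, 371 bp at MRPS21 and 177 bp at MRPS28. MRPL14 was called by control anti-ETO alone (194 bp), a combination held by 0.806% of all coding genes, and MRPS33 by control anti-Flag alone (342 bp), held by 1.34%. MRPS15, a small-subunit gene, was called by anti-ETO alone in both conditions (1.52% of all coding genes), with 188 bp in control and 208 and 319 bp after knockdown. MRPL9 was in the knockdown anti-ETO and control anti-Flag lists (1.51%), and MRPL21 in every list but control anti-ETO (1.71%).

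Control-unique peaks, named as given by both antibodies in control cells alone, lay at 10 genes. In 9 of the 10 (90.0%) a knockdown anti-ETO peak still overlapped the site, and a knockdown anti-Flag peak did so in 0 of 10. For the 1512 control-unique peaks near any coding gene these shares were 84.9% and 2.91%. By its name, a control-unique peak should lack at least 1 antibody after knockdown. Near any coding gene a few did not, since knockdown anti-ETO peaks overlapped 1283 and only 1267 of these lacked a knockdown anti-Flag peak. Anti-Flag was absent after knockdown at all 10 sites here, as it was at most such peaks near coding genes. MRPL40 was the 1 site with neither antibody after knockdown.

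The widest control-unique peak lay at MRPS18C, a small-subunit gene that starts beside HELQ, and spanned 1402 bp at chr4:83455128-83456529. It measured 1356 bp with anti-ETO and 1353 bp with anti-Flag in control, and after knockdown anti-ETO gave 3 narrower peaks of 254, 406 and 502 bp and anti-Flag none. MRPL4, whose protein lines the tunnel through which the new chain leaves the ribosome, had 818 bp at chr19:10251584-10252401. There anti-ETO measured 816 bp in control and 401 bp after knockdown, and anti-Flag 192 and 420 bp in control and none after knockdown, when its 1 peak at MRPL4 (172 bp) lay at the gene end. MRPL36, beside NDUFS6, had 641 bp at chr5:1800678-1801318, where the anti-ETO peak was 600 bp in control and 1908 bp after knockdown. The anti-ETO width was therefore smaller after knockdown at MRPS18C and MRPL4 and larger at MRPL36, while anti-Flag gave no peak at these sites after knockdown.

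MRPS5, a small-subunit gene, had 617 bp at chr2:95121619-95122235, with 616 bp in control anti-ETO, 453 bp in knockdown anti-ETO and 442 bp in control anti-Flag. The other 6 were narrower than these 4. They measured 347 bp at MRPL40 (chr22:19432586-19432932), 322 bp at MRPL18 (chr6:159790492-159790813), 319 bp at MRPL2 (chr6:43059629-43059947) and 222 bp at MRPL49 (chr11:65122344-65122565). The last 2 were 205 bp at MRPL42 (chr12:93467526-93467730) and 193 bp at MRPL32 (chr7:42932394-42932586). MRPL2 encodes a protein near the peptidyl transferase centre, and MRPL18 one of the central protuberance of the large subunit. At MRPL49 knockdown anti-Flag did give peaks of 289 and 181 bp near the gene, but neither overlapped the control-unique site.

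The bases before the start of MRPS18C and MRPL4 lie inside their control-unique peaks. They are chr4:83455884-83456057 on the plus strand, shortened to 174 bases where HELQ begins, and chr19:10251701-10251950 on the plus strand.
MRPS18C: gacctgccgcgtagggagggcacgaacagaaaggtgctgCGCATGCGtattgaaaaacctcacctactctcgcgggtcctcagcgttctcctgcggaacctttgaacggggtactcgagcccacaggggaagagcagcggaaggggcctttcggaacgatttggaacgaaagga
MRPL4: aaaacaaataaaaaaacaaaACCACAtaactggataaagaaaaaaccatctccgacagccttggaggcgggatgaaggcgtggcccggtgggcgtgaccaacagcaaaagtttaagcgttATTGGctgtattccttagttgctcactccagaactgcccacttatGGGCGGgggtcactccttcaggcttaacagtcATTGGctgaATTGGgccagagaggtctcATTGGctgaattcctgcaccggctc
Capitals in MRPS18C mark the NRF1 letters GCATGCG, which match on both strands in overlap at this site. Capitals in MRPL4 mark the RUNX letters TGTGGT on the other strand 230 bases before the start, the SP/KLF letters GGGCGG at 85 bases, and the NFY letters CCAAT on the other strand at 130, 53, 44 and 25 bases.

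Knockdown-unique peaks lay at 8 genes and were 7 distinct peaks, since MRPL46 and MRPS11, which start beside each other, share 1. A control anti-ETO peak overlapped 2 of the 7 (28.6%), at MRPL40 and MRPL45, and a control anti-Flag peak 0. Of the 1288 knockdown-unique peaks near any coding gene, a control anti-ETO peak overlapped 13.4% and a control anti-Flag peak 52.9%. At 5 of the 7 (71.4%) neither antibody gave a control peak, against 35.8% near all coding genes, so the share with a control anti-Flag peak was lower here than across coding genes. With 7 peaks, no test was made of this difference.

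The widest knockdown-unique peak, 708 bp at chr11:73787615-73788322, lay at the start of MRPL48 (large subunit, specific to mitochondria). It measured 708 bp with anti-ETO and 399 bp with anti-Flag after knockdown, and neither antibody gave a peak in control. A further knockdown anti-ETO peak of 428 bp lay 827 bp into the gene. The peak shared by MRPL46 and MRPS11 spanned 490 bp at chr15:88467183-88467672, with 490 bp in anti-ETO and 175 bp in anti-Flag. MRPL27, beside the nuclease gene EME1, had 379 bp at chr17:50372779-50373157 (379 and 341 bp), and MRPL28, beside PGAP6, had 222 bp at chr16:370663-370884 (222 and 171 bp). In each of these the anti-Flag peak was the narrower of the 2.

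MRPL38 had a knockdown-unique peak of 302 bp at its gene end (chr17:75897688-75897989) as well as calls in all 4 lists. MRPL45, whose protein helps tether the ribosome to the inner mitochondrial membrane, had 214 bp at chr17:38296692-38296905 beside a shared peak of 583 bp. MRPL40 (beside the histone chaperone gene HIRA) carried both kinds of peak. Its knockdown-unique peak of 492 bp (chr22:19431788-19432279) ended 266 bp before the gene start, and its control-unique peak of 347 bp began 41 bp after the start.

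The bases before MRPL48 (chr11:73787624-73787873, plus strand) and MRPL46 (chr15:88467389-88467638, minus strand) lie in knockdown-unique peaks.
MRPL48: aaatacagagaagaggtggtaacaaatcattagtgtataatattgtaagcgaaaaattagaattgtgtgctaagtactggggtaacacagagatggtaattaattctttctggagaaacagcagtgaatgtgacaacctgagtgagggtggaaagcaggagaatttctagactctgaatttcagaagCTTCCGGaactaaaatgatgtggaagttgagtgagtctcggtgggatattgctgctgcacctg
MRPL46: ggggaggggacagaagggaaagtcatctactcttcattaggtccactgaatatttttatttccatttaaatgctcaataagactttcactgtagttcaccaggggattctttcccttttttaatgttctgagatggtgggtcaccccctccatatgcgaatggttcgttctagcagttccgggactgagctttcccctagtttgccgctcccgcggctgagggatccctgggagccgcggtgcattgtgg
The MRPL48 window holds the ETS letters on the other strand, 63 bases before the start, and the MRPL46 window holds none of the 10 motifs.

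No single-antibody list called 26 genes. They were MRPL3, MRPL13, MRPL15, MRPL16, MRPL17, MRPL19, MRPL22, MRPL30, MRPL35, MRPL37, MRPL39, MRPL43, MRPL44, MRPL50, MRPL52, MRPL57, MRPS2, MRPS9, MRPS10, MRPS14, MRPS17, MRPS22, MRPS25, MRPS27, MRPS31 and MRPS35. Their distance to the nearest peak of any of the 4 lists ran from 2684 bp at MRPS10 to 1630790 bp at MRPL44, with a median of 36430 bp. Core proteins were among them, such as MRPL3, which lies near the peptidyl transferase centre. With limits of 500 bp and 2.5 kb in place of 1 kb, 27 and 26 genes were in no list. In all 4 lists were 27 and 30 genes. The shares of all coding genes in these classes were not counted at these limits. The peak just inside the 1 kb limit was a knockdown anti-ETO peak at MRPL12 (979 bp away). Those just outside were at MRPS23 (1062 and 1080 bp) and MRPL40 (1081 bp), both of which had nearer peaks.

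Peaks at these genes lay mainly at the gene start. Strand is known for 69 of the 77 genes (not for MRPL2, MRPL10, MRPL13, MRPL15, MRPL21, MRPL23, MRPL35 and MRPS28). Of the 69, control anti-ETO gave a peak within 1 kb of the start at 35 (50.7%, against 35.1% of the 15813 coding genes with a known strand) and of the end at 7 (10.1%, against 5.01%). Knockdown anti-ETO gave 44 (63.8%, against 41.7%) and 11 (15.9%, against 7.60%). Control anti-Flag gave 35 (50.7%, against 36.6%) and 9 (13.0%, against 7.20%), and knockdown anti-Flag 33 (47.8%, against 29.7%) and 12 (17.4%, against 7.43%).

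In each of the 4 lists, the first base of the gene lay in a peak at fewer of the 69 genes than the base 100 bp into the gene. In knockdown anti-ETO, peaks covered the base 100 bp into the gene at 49.3% of the 69 genes, the start base at 33.3% and the base 200 bp before it at 44.9%. In knockdown anti-Flag these shares were 26.1%, 20.3% and 26.1%. All coding genes also dipped, with 30.8%, 23.3% and 24.5% in knockdown anti-ETO and 17.7%, 10.2% and 12.7% in knockdown anti-Flag. At 100 bp before the start their shares were lower still, at 21.2% and 8.94%, while the 69 genes had 36.2% and 21.7% there. In the control lists the 69 genes too were lower there (27.5% with anti-ETO and 29.0% with anti-Flag) than at the start base (30.4% and 31.9%).

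**Figure D4:**
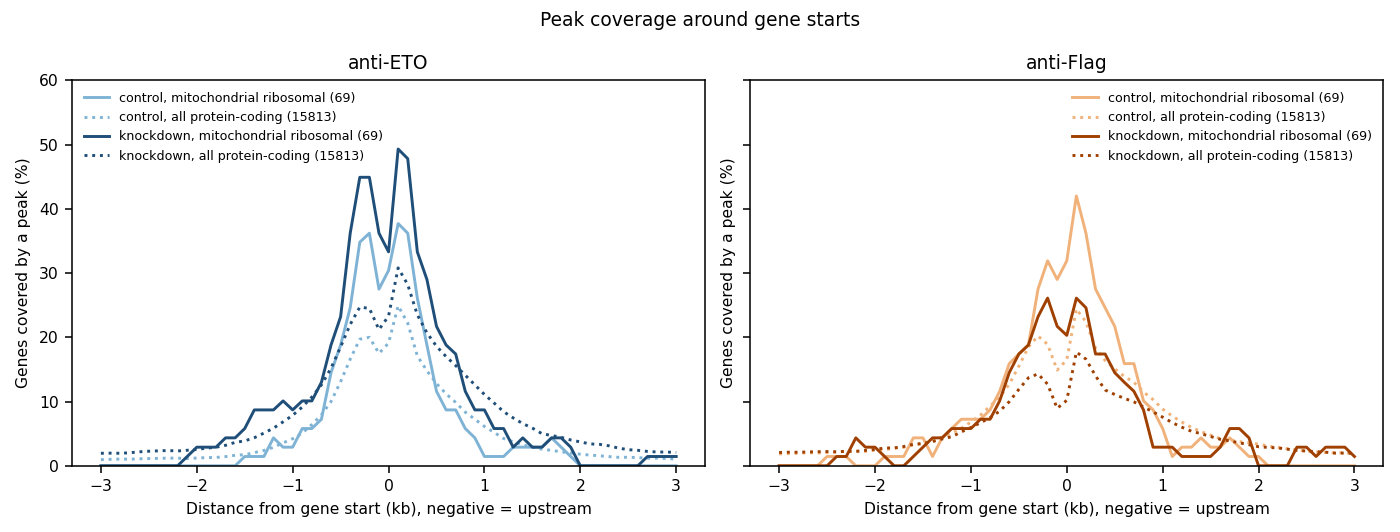
Share of genes (percent) covered by a peak, by distance from the gene start (kb, negative before the start), for the 69 mitochondrial ribosomal protein genes with a known strand and for 15813 protein-coding genes, in each single-antibody list. At the start base the former reach 30.4%, 33.3%, 31.9% and 20.3% in control anti-ETO, knockdown anti-ETO, control anti-Flag and knockdown anti-Flag, and the latter 19.1%, 23.3%, 16.5% and 10.2%.

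The peaks at these genes had a lower median width than peaks near any coding gene in every single-antibody list but control anti-Flag. Their median widths were 438 bp in control anti-ETO, 445 bp in knockdown anti-ETO, 491 bp in control anti-Flag and 372 bp in knockdown anti-Flag. Peaks near any coding gene had medians of 499, 533, 460 and 406 bp. In the same order, lower quartiles were 202.5, 259.5, 316 and 250 bp here, against 302, 334, 291 and 276 bp. Median widths of control-unique and knockdown-unique peaks were 334.5 and 379 bp, against 437.5 and 496 bp. These differences were not tested. Of the 51 control anti-ETO peaks at these genes, 49 (96.1%) overlapped a knockdown anti-ETO peak, which was wider at 34 and narrower at 15, with a median ratio of 1.34. Near all coding genes 93.6% did so, with a median ratio of 1.24. Where several knockdown peaks overlapped, the widest was taken. Control peaks under the same knockdown peak, as at MRPL11, MRPL12 and MRPS34, were each counted, so these counts are not of separate sites. The same rules applied to both antibodies and to all coding genes. Of the 53 control anti-Flag peaks, 36 (67.9%) overlapped a knockdown anti-Flag peak, wider at 14 and narrower at 22, with a median ratio of 0.93, against 67.2% and 0.905. The share that persisted and the direction in width were thus near those of all coding genes.

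Single genes ran past these medians. The anti-ETO peak at MRPL23, whose protein sits at the exit of the tunnel, measured 189 bp in control and 1111 bp after knockdown. The anti-Flag peak at MRPL33 measured 901 bp in control and 235 bp after knockdown, and that at MRPS6 650 and 187 bp. MRPL23, MRPL33 and MRPS6 were chosen after their values were seen.

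The promoter sequences of the 69 genes with a RefSeq entry, 250 bases before to 50 after the gene start, were searched on both strands for the letters of 10 motifs. ETS letters (CCGGAAG) were in 29 (42.0%), against 14.2% of all promoters, and YY1 letters (ATGGCGG) in 24 (34.8%), against 7.63%. NRF1 letters (GCATGCG) were in 7 (10.1%), against 5.14%, ZNF143 letters (ACTACAA) in 6 (8.70%), against 3.15%, and E2F letters (TTCCCGC) in 9 (13.0%), against 8.61%. SP/KLF letters (GGGCGG) were in 42 (60.9%), against 58.5%. Lower than in all promoters were NFY letters (CCAAT) in 20 (29.0%, against 36.3%), TATAAA in 2 (2.90%, against 9.64%) and the CRE letters TGACGTC in 2 (2.90%, against 4.58%). RUNX letters (TGTGGT), those bound by the runt domain that AML1-ETO keeps, were in 5 (7.25%, against 10.9%), namely MRPL4, MRPL22, MRPL38, MRPS18C and MRPS24. These shares depend on the window. In the 150 bases before the start alone, ETS letters were in 21 (30.4%, against 9.66%), YY1 letters in 3 (4.35%, against 1.97%) and ZNF143 letters in 3 (4.35%, against 1.95%). E2F letters were then in 3 (4.35%, against 4.85%) and SP/KLF letters in 34 (49.3%, against 49.8%), so both shares fell below those of all promoters. Matches of different motifs overlapped in MRPL53 and MRPL54, where ETS letters overlapped SP/KLF or CRE letters. The median GC content was 60.3%, against 62.7% of all promoters.

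Called and uncalled genes both held these letters. ETS letters were in 46.4% of the 28 promoters of genes called in all 4 lists, in 44.4% of the 18 called in 1 to 3 lists and in 34.8% of the 23 called in none. YY1 letters were in 25.0%, 44.4% and 39.1%, and RUNX letters in 10.7%, 5.56% and 4.35%. A match describes these letters in this window and shows no binding by the factor.

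**Figure D5:**
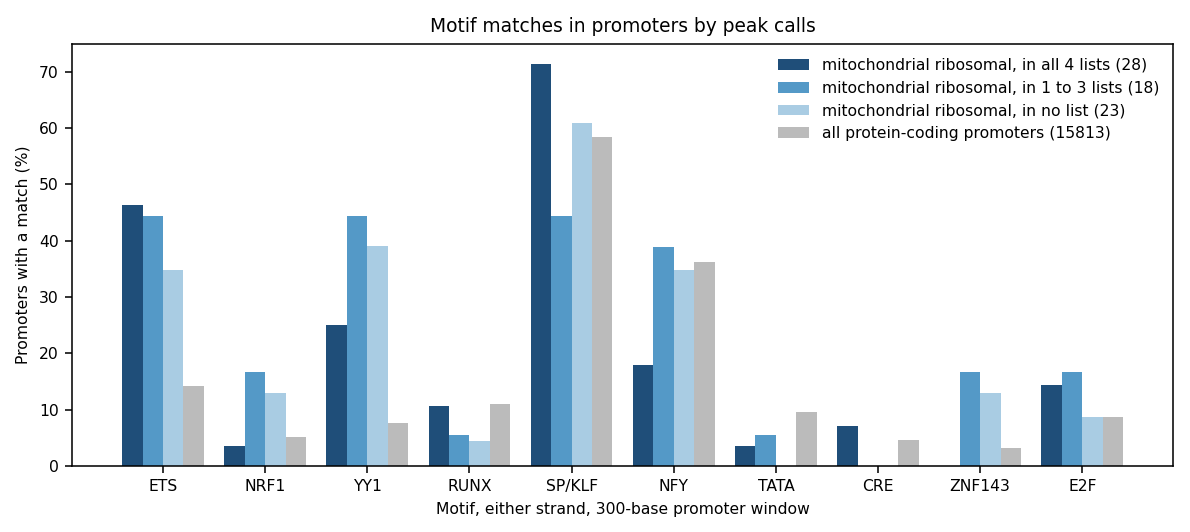
Share of promoters (percent) that hold the letters of each motif on either strand, for the mitochondrial ribosomal protein genes called in all 4 lists (28), in 1 to 3 lists (18) and in none (23), and for all protein-coding genes. ETS letters reach 46.4%, 44.4% and 34.8% in the 3 classes and 14.2% in all promoters.

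ETS matches before the gene start are shown with up to 11 bases on each side, in the direction of the motif and with CCGGAAG in capitals, to set called beside uncalled genes. The matches were chosen for showing after the values were seen. In genes called in all 4 lists they read as follows.
MRPL20: caggggctgacCCGGAAGcgctcgtgacc
MRPL33: cgggccgtgccCCGGAAGc
MRPL40: ggggcgcacgcCCGGAAGcggc
MRPL51: cggcaggcggaCCGGAAGcactgaggcgg
MRPL53: gcagccggcggCCGGAAGtctatcccgca
MRPL54: agtgcacgtttCCGGAAGacgtcagtggc
MRPL58: ggaagcgcccgCCGGAAGc
MRPS23: accggaaCCGGAAGcggctgctcca
MRPS26: gccaccgtgccCCGGAAGcggcgcgggga
MRPS34: cagcggtccggCCGGAAGtcaccggaaga
In genes called in none they read as follows.
MRPL3: tgtaaaacgcaCCGGAAGtgggtccggcg
MRPL30: atgaccacttcCCGGAAGcgcagcagacc
MRPL43: tcgtcccggaaCCGGAAGcctcgaggttt
MRPS10: ccgctgtaaccCCGGAAGcaatcctgaga
MRPS22: ggcggaaagggCCGGAAGtcttccgggcc
MRPS31: aaggcgccaggCCGGAAGcggaagagagg
Of the 10 matches shown for called genes, 8 lay inside a control anti-ETO peak and 9 in a knockdown anti-ETO peak. In a control anti-Flag peak lay 9, and in a knockdown anti-Flag peak 6. That in MRPL40 lay in no peak, between its knockdown-unique and control-unique peaks. By the choice of genes, the 6 matches shown for uncalled genes lay in none.

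Other genes of mitochondrial translation, together with 7 of mitochondrial transcription, are given for comparison. These lists were chosen with earlier results of these data known. Of 67 such genes, control anti-ETO called 39 (58.2%), knockdown anti-ETO 42 (62.7%), control anti-Flag 40 (59.7%) and knockdown anti-Flag 29 (43.3%), against 35.1%, 41.7%, 37.1% and 30.6% of all coding genes. Control-unique peaks lay at 10 (14.9%, against 8.54%) and knockdown-unique peaks at 2 (2.99%, against 6.86%), beside 13.0% and 10.4% of the mitochondrial ribosomal protein genes. The difference between the 2 sets was not tested. All 6 ribosome-associated genes with other names, DAP3, PTCD3, AURKAIP1, CHCHD1, GADD45GIP1 and OXA1L, were called in all 4 lists. Of 12 translation factors, 50%, 50%, 33.3% and 16.7% were called in the same order of lists, so both anti-Flag shares were below those of all coding genes. Of 19 tRNA synthetases, 57.9%, 68.4%, 63.2% and 47.4% were called, and of 23 assembly factors 52.2%, 56.5%, 56.5% and 34.8%. Of the 7 genes of mitochondrial transcription, 57.1%, 57.1%, 71.4% and 57.1% were called.

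Assembly factors had control-unique peaks at 5 of 23 genes (21.7%, against 8.54%) and knockdown-unique peaks at 0 (against 6.86%), and this was not tested. The widest, 1494 bp at chr3:47802440-47803933, lay at DHX30, a helicase of ribosome assembly. Control-unique peaks of 657 and 518 bp lay at MTRF1, a release factor family member, and OXA1L, the insertase that receives new chains in the inner membrane. The 2 knockdown-unique peaks lay at TUFM, the mitochondrial elongation factor Tu (976 bp), and AARS2, the mitochondrial alanyl-tRNA synthetase (547 bp).

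The 84 genes of the cytosolic ribosome gave 58.3% in control anti-ETO, 64.3% in knockdown anti-ETO, 57.1% in control anti-Flag and 45.2% in knockdown anti-Flag. Each of these 4 shares was above that of all coding genes, as for the mitochondrial ribosome. Anti-ETO called 6 cytosolic ribosomal protein genes only after knockdown (7.14%, against 8.03% of all coding genes) and 1 only in control (1.19%, against 1.48%). Anti-Flag called 4 only after knockdown (4.76%, against 2.58%) and 14 only in control (16.7%, against 9.10%). With the knockdown lists at control lengths, anti-ETO and anti-Flag called 3 and 3 only after knockdown here (3.57% and 3.57%). The mitochondrial ribosomal protein genes gave 4 and 3 (5.19% and 3.9%), and all coding genes 3.79% and 2.2%.

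Along the chromosomes, all 8 genes on chromosome 17 had a knockdown anti-ETO peak (53.9% of all coding genes there). All 4 genes on chromosome 19 had a peak in each of the 4 lists. List by list, the shares of all coding genes there were 45.1% in control anti-ETO, 54.8% in knockdown anti-ETO, 51.6% in control anti-Flag and 51.0% in knockdown anti-Flag. On chromosome 2, 3 of 8 had a knockdown anti-ETO peak (40.0% of all coding genes there) and 5 were in no list. On chromosome 1, 6 of 8 had a knockdown anti-ETO peak (42.9% of all coding genes there) and 3 of 8 a control anti-ETO peak (34.9%). On chromosome 3, 1 of 4 had a knockdown anti-ETO peak (40.3% of all coding genes there), and on chromosome 13, 0 of 2 (32.8%). Shares of all coding genes in all 4 lists together or in no list were not counted by chromosome. No rule set beforehand named these chromosomes, and the others are not listed.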

How the data were processed

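CUT&RUN peaks of 7 lists were used, as positions deposited by the authors. No count, score or p-value came with them. The submitters' processing notes name hg38, sacCer3, fastp 0.19.5, Bowtie2 2.3.5, MACS2 2.2.5 and HOMER 4.8, without role or order. The peak threshold, the use of the IgG libraries and the handling of replicates are not given in the sources used here, and a looser threshold or deeper library would lengthen a list. About 40 M reads per library were planned, per the labels' protocols, and the depth behind a peak is unknown. IgG lists were not used here.

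Starts were counted from 1. Gene positions came from RefSeq GRCh38.p14, the build named in the notes as hg38. A peak was assigned to a gene when at least 1 base lay within 1000 bp of a boundary, and readthrough genes count as neighbours. Widths at a site are of peaks that overlap it by at least 1 bp. Promoters matched 69 of the 77 genes by gene identifier. No test was run: counts are set beside all protein-coding genes. Alternatives changed the distance, the peak centre, the width filter, the list lengths, the promoter window and the neighbours.

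The members, gene lists, tests and rules were chosen with earlier results of these data known. Named are all members with a unique peak, the 6 with the widest shared peak, those without a peak or called by 1 antibody in 1 condition, and up to 6 other genes of mitochondrial translation with the widest unique peaks. Exceptions are marked in the text. Python 3.11.15, numpy 2.4.6, pandas 2.3.3, matplotlib 3.10.9 and bedtools 2.31.1 were used. The assignment was tested on simulated data of 2000 genes, where 477 of 477 planted genes were recovered with 0 false, and bedtools gave the same number of genes in 7 of 7 lists.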

Additional observations from a re-analysis of the deposited data

How the results depend on the processing

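No paired analysis was possible because the peak lists carry no libraries and no result came from a test, and for the same reason no replicate could be left out. Of 113 alternatives of the counts and widths at the mitochondrial ribosomal protein genes, 87 stayed within 1.5 times the reported value and 26 did not. Some of the 87 could not change. Shortening the knockdown lists left both control lists as they were, and control anti-ETO, the shortest list, was never shortened to another length. With the wider 50% of each list, control anti-ETO called 21 genes (27.3%, against 22.7% of all coding genes) and knockdown anti-ETO 30 (39.0%, against 29.6%). Control anti-Flag called 25 (32.5%, against 25.9%) and knockdown anti-Flag 19 (24.7%, against 21.6%). In this setting 14 genes were in all 4 lists and 44 in none. Shared peaks then lay at 14 genes (18.2%, against 15.9%), control-unique at 4 (5.19%, against 4.06%) and knockdown-unique at 1 (1.3%, against 3.4%). Anti-ETO called 2 only in control, and anti-Flag called 3 only after knockdown. For these calls in 1 condition, and for all 4 lists or none, no share of all coding genes was counted in this setting. With all 4 lists at the shortest length, knockdown anti-Flag called 22 (28.6%, against 22.9%) and all 4 lists 19 (share of all coding genes not counted). Anti-ETO then called 6 only in control (7.79%, against 5.42%) and 4 only after knockdown (5.19%, against 3.79%), and anti-Flag 3 only after knockdown (3.9%, against 2.18%). With knockdown lists at control lengths these 3 counts were 6, 4 and 3 as well. With peaks near no other coding gene, chosen after seeing the data, 17, 19, 19 and 18 genes were called in control anti-ETO, knockdown anti-ETO, control anti-Flag and knockdown anti-Flag. Shared peaks then lay at 12 (15.6%, against 16.0%), control-unique at 2 (2.6%, against 5.8%) and knockdown-unique at 2 (2.6%, against 4.75%). Of 96 alternatives of the promoter letters and the comparison sets, 79 stayed within 1.5 times and 17 did not, and here too some could not change. At the mitochondrial ribosomal protein genes, each list that a setting shortened also gave fewer calls, and the cause was not tested. The lists give no read depth, so a missing call may be a weak peak.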

Other observations

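The mitochondrial genome itself, whose messages the mitochondrial ribosome translates, held 2 peaks in the knockdown anti-ETO list and 0 in each of the 6 other lists.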
